A study of Homo sapiens with 30 samples.

Results

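The dual specificity MAP kinase phosphatases were followed as a family of 10 genes, DUSP1, DUSP2, DUSP4, DUSP5, DUSP6, DUSP7, DUSP8, DUSP10, DUSP14 and DUSP16, taken by gene name from the 58780 genes of the count table. Each name had 1 row, and all 10 genes were among the 22919 with enough counts to be tested. The assay was PRO-seq (precision run-on sequencing), in which RNA polymerases already engaged on genes add a labelled nucleotide to their transcripts. All cells were A549, an established human line from a lung adenocarcinoma. Cells received 100 nM dexamethasone (Dex, a synthetic glucocorticoid), GSK591 at 1 µM (which blocks PRMT5, an enzyme that methylates arginine symmetrically), MS023 at 1 µM (which blocks the Type I enzymes, which make asymmetric dimethylarginine) or combinations, and 0.01% DMSO was present in every group, untreated cells included. The 30 libraries formed 15 groups of 2. They were untreated cells, labelled as the 15 min control and used here for all times, Dex for 15 min or 3 h, Dex with GSK591 or with MS023 for 3 h, each inhibitor alone for 2, 4 or 7 days, and each inhibitor for 7 days and then Dex for 15 min or 3 h. All libraries come from 1 cell line, the labels do not say that replicates came from separate cultures, and p-values therefore measure the spread between these samples, which may be technical.

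These enzymes switch off MAP kinases by removing phosphate from both the threonine and the tyrosine of the kinase activation loop. DUSP1, DUSP2, DUSP4 and DUSP5 are nuclear proteins whose genes are commonly induced by growth factors or stress, and DUSP5 acts chiefly on ERK. DUSP6 and DUSP7 are cytoplasmic phosphatases of ERK, while DUSP8, DUSP10 and DUSP16 act mainly on JNK and p38. DUSP14 is a small atypical member without the kinase-binding domain of the others. DUSP1 is a textbook glucocorticoid-induced gene of airway epithelial cells, where it limits p38 and JNK signalling.

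Total counts were 8441211 to 13069598 per library, of which mitochondrial genes took 58.7% to 78.7%, leaving 2497281 to 3934713 counts on nuclear genes other than ribosomal RNA. Replicates correlated at 0.946 to 0.987 across genes on the log2 scale, and no pair agreed within sampling noise. Glucocorticoid targets outside the family moved with the labels, since TSC22D3 rose by 2.89 and FKBP5 by 2.90 on the log2 scale at 3 h of Dex. All 9 epithelial or A549 markers were counted in all 30 libraries, with sums of 729 to 1540 CPM (library-size scaled counts, here with the TMM method), although EPCAM and CDH1 had medians of only 2.34 and 2.64 CPM. Markers of blood, endothelium and fibroblasts summed to 2.35 to 9.03 CPM. CD14 had the highest median of these, 2.31 CPM, and CD3E and MS4A1 had a median of 0.

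RefSeq promoter windows, from 250 bases before to 50 bases after the start site (GRCh38.p14), were found for 8 of the members, and DUSP4 and DUSP5 had no entry. The upstream 250 bases are printed 5′ to 3′ for DUSP1, which rose with Dex, for DUSP8, which fell, and for DUSP2, the member whose profile across groups was nearest to that of DUSP8. Capitals mark the cyclic AMP response element (CRE, TGACGTCA), its core TGACG and the TATA box TATAAA, found by exact match on either strand.
DUSP1, chr5:172771196-172771445, minus strand: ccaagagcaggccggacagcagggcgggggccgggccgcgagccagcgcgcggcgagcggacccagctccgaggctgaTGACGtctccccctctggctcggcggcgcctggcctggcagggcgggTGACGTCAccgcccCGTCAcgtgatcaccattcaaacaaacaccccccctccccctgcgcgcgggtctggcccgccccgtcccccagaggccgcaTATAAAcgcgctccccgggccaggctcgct
DUSP8, chr11:1572272-1572521, minus strand: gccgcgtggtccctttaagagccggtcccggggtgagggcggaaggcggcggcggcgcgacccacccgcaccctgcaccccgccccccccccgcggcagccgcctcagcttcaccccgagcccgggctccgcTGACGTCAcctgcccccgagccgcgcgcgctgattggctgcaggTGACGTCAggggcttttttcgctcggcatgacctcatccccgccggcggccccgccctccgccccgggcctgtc
DUSP2, chr2:96145441-96145690, minus strand: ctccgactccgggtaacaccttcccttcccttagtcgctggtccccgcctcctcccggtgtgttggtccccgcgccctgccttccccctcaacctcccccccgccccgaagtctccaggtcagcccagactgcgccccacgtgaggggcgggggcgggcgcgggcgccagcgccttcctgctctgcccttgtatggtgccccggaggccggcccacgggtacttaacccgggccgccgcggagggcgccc

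DUSP1 and DUSP8 were the 2 members of 8 with a full CRE, which 1.85% of 35116 promoter windows held. The DUSP1 match lies at position -125 and the DUSP8 matches at -118 and -74, counted from the start site to the first base. Each full CRE contains overlapping cores on both strands, and DUSP1 had 2 more cores, at -172 and -111, plus the single TATA box of the set, at -30. CRE cores occurred in 24.6% of all windows and the TATA box in 11.5%. The GC box GGGCGG was found in 7 of the 8 windows and in 45.0% of all windows, and the printed DUSP2 stretch, 74% G and C, held 3 of these and none of the capitalised motifs. No window of the 8 contained the glucocorticoid response hexamer AGAACA, the AP-1 site TGAGTCA or the ETS core GGAAGT, which were present in 14.8%, 4.95% and 22.8% of all windows. The DUSP6 window matched none of the motifs. Its RefSeq start is at 89352501 and the GENCODE gene starts at 89353271 on the minus strand, so the window lies inside the annotated gene. The RefSeq start of DUSP1 and DUSP2 is the start of the GENCODE gene, while those of DUSP8 and DUSP16 lie 351 and 480 bases upstream of it.

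**Figure D1:**
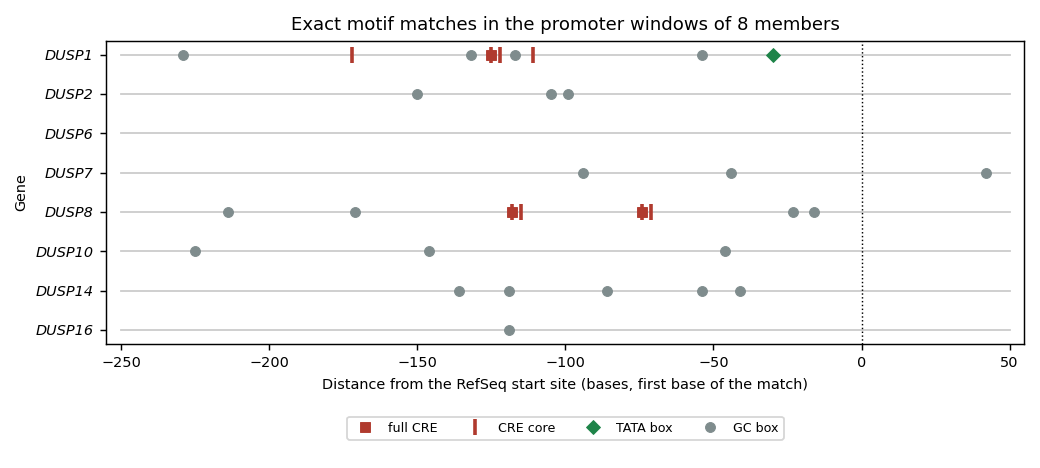
Exact motif matches in the promoter windows of 8 members, by distance in bases from the RefSeq start site (dotted line at 0). Red squares mark full CREs, red bars CRE cores, the green diamond the TATA box and grey circles GC boxes, and red symbols appear on DUSP1 and DUSP8.

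In untreated cells the family spanned a wide range of transcription. Levels are compared between genes per kilobase (kb) of annotated exon. The feature type counted is not given in the sources used here, so exon length may not be the right divisor. The order of the genes may depend on this choice. DUSP1 (chr5:172768090-172771195, minus strand, hg38) had 106 CPM per kb, followed by DUSP4, on chromosome 8, with 26.0 and DUSP5 (chr10:110497838-110511544, plus strand) with 16.3. No library range of these 3 genes overlapped that of another member. DUSP14 (chr17:37489831-37513501, plus strand) had 2.71 CPM per kb, and DUSP16 (chr12:12474210-12562383, minus strand), DUSP7 (chr3:52048919-52056550, minus strand) and DUSP2 (chr2:96143166-96145440, minus strand) had 1.56, 1.42 and 1.32. The ranges of DUSP16 and DUSP7 overlapped, as did those of DUSP7 and DUSP2. DUSP8 (chr11:1554044-1571920, minus strand) and DUSP6 (chr12:89347232-89353271, minus strand), with 0.926 and 0.782, were separated by less than their spread (SD 0.0487 and 0.155, n = 2) and overlapped, and DUSP10 (chr1:221701424-221742176, minus strand) was lowest at 0.416. The counts behind the low members are small: untreated DUSP10 rests on 10 and 13 counts and DUSP2 on 24 and 24. An antisense gene, AC024909.2, covers 40.5% of the exonic bases of DUSP6, and whether reads were counted by strand is not given in the sources used here, so the 2 transcripts may share counts.

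Dex raised DUSP1 within 15 min and kept it high at 3 h. The untreated libraries had 205 and 224 CPM, the 15 min libraries 442 and 419 and the 3 h libraries 527 and 517. Both times lay above untreated without overlap. The log2 fold change was 1.01 (SE 0.109, edgeR adjusted p = 3.21e-09) at 15 min, or 2.01-fold, and 1.28 (SE 0.11, edgeR adjusted p = 5.19e-13) at 3 h, or 2.43-fold. The further step from 15 min to 3 h, 0.28 (SE 0.108, edgeR adjusted p = 0.0908), did not pass the threshold of 0.05. Both calls against untreated cells held in all of the alternatives tried, including each library left out.

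**Figure D2:**
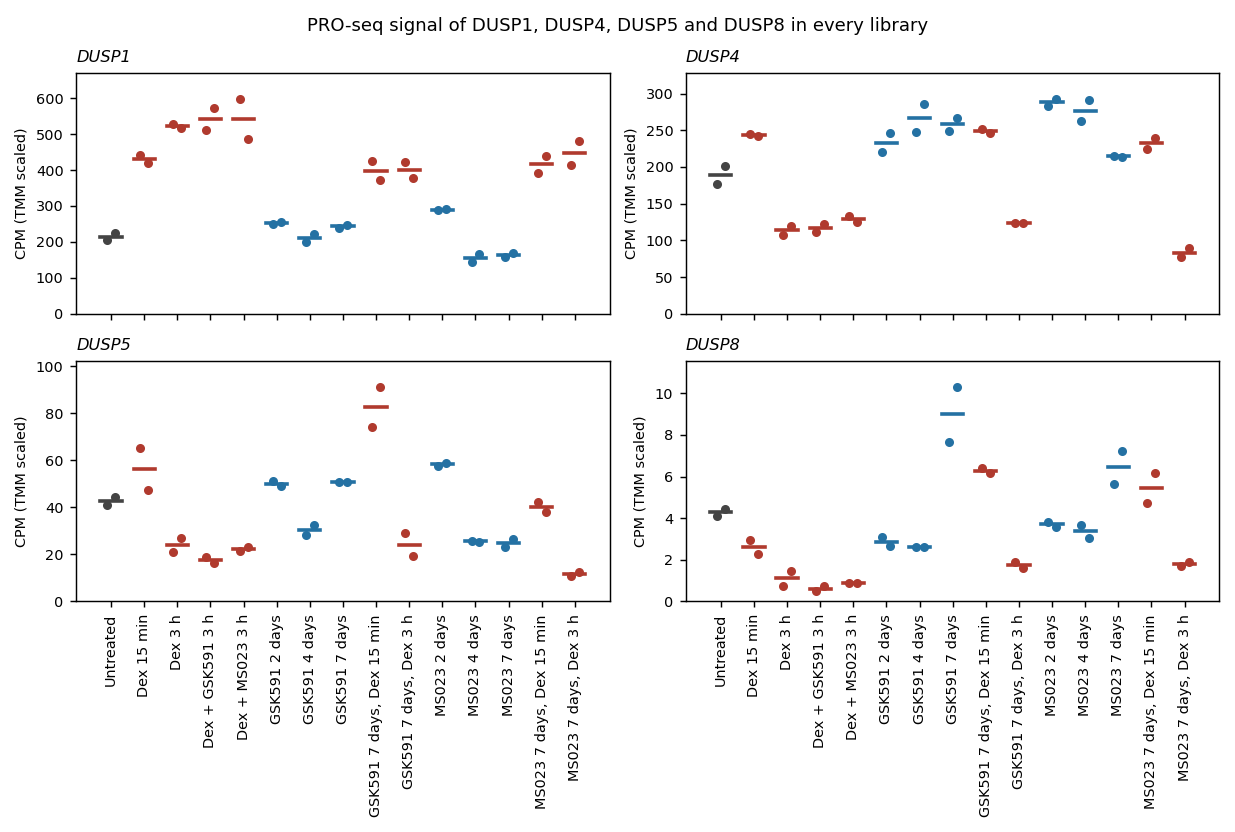
CPM of DUSP1, DUSP4, DUSP5 and DUSP8 in every library, with 1 point per library, a bar at the mean of 2 and a linear axis from 0. Grey is untreated, red any group with Dex and blue an inhibitor alone, and at 3 h of Dex DUSP1 lies above untreated cells while DUSP4, DUSP5 and DUSP8 lie below them.

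DUSP4, a nuclear phosphatase of ERK and JNK, rose slightly at 15 min and fell by 3 h. Its libraries had 177 and 201 CPM untreated, 245 and 243 at 15 min and 108 and 119 at 3 h, so the 3 h values were the lowest and the groups did not overlap. The 15 min value, 0.37 (SE 0.1, edgeR adjusted p = 0.0494), was only just past the threshold, and it was lost without any 1 of the 4 libraries compared (log2 0.28 to 0.46, adjusted p = 0.0749 to 0.802). The change at 3 h was -0.74 (SE 0.102, edgeR adjusted p = 3.04e-07), 1.67-fold lower. Against 15 min the 3 h libraries differed by -1.10 (SE 0.102, edgeR adjusted p = 1.65e-11). With total-count scaling the change at 3 h was -0.57 (adjusted p = 0.0983), no longer called.

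DUSP5, the nuclear ERK phosphatase, had 40.8 and 44.4 CPM in untreated cells and 21.2 and 27.1 at 3 h. Its 15 min libraries differed from each other, with 65.3 and 47.2 CPM, both above untreated. The 15 min difference of 0.40 (SE 0.147, edgeR adjusted p = 0.332) did not pass, but without the 15 min Dex replicate 2 it was 0.62 with an adjusted p = 0.0417. At 3 h the log2 fold change was -0.83 (SE 0.158, edgeR adjusted p = 0.000363), 1.77-fold lower, and against 15 min -1.23 (SE 0.156, edgeR adjusted p = 8.86e-07). With total-count scaling the 3 h change was -0.65 (adjusted p = 0.169), no longer called.

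DUSP8, a phosphatase of JNK and p38, showed the largest fall of the family at 3 h of Dex. It dropped from 4.12 and 4.43 CPM in untreated cells through 2.96 and 2.30 at 15 min to 0.744 and 1.47 at 3 h, with no overlap between untreated and either time. These values rest on 37 and 44 counts untreated, 30 and 23 at 15 min, and 7 and 12 at 3 h. The log2 fold change at 3 h was -1.97 (SE 0.341, edgeR adjusted p = 2.87e-05), 3.92-fold lower, while at 15 min it was -0.70 (SE 0.281, edgeR adjusted p = 0.408) and not called. Against 15 min the value was -1.27 (SE 0.366, edgeR adjusted p = 0.0167), a call lost without the 15 min Dex replicate 1 (log2 -1.08, adjusted p = 0.158) and without the 3 h Dex replicate 1 (log2 -0.84, adjusted p = 0.294), and in DESeq2 -1.28 (adjusted p = 0.0673).

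The other members gave no call against untreated cells at either time of Dex. DUSP6, the cytoplasmic ERK phosphatase, had 3.11 and 4.13 CPM untreated, 7.01 and 5.90 at 15 min and 3.51 and 3.17 at 3 h. Its 15 min value of 0.82 (SE 0.229, edgeR adjusted p = 0.0562) lay just outside the threshold. The later decline against 15 min, -0.94 (SE 0.236, edgeR adjusted p = 0.00482), was called, but not without the 15 min Dex replicate 1 (log2 -0.81, adjusted p = 0.0854) and without the 3 h Dex replicate 2 (log2 -0.88, adjusted p = 0.0685). DUSP7 was 6.32 and 6.20 CPM at 15 min and 9.67 and 10.0 at 3 h, and this difference, 0.65 (SE 0.222, edgeR adjusted p = 0.0482), was lost without any 1 of the 4 libraries compared (log2 0.63 to 0.68, adjusted p = 0.143 to 0.214). DUSP2 had 2.67 and 2.42 CPM untreated and 1.28 and 1.47 at 3 h, a difference of -0.89 (SE 0.388, edgeR adjusted p = 0.146) that did not pass. DUSP10, DUSP14 and DUSP16 ranged from -0.13 to 0.14 on the log2 scale over both times.

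In counts, 2 of the 10 members were called at 15 min of Dex, both higher, against 1.26% of all genes tested. At 3 h 1 was higher and 3 were lower, against 6.11% and 4.41% of all genes. From 15 min to 3 h 1 was higher and 4 were lower, against 6.23% and 4.53%. The median log2 fold change of the family was 0.02, -0.11 and -0.42 in these comparisons, and -0.01, -0.01 and 0 over all genes. DUSP1 moved opposite to DUSP4, DUSP5 and DUSP8 at 3 h. These comparisons share libraries, so their values are set side by side and not compared further.

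Adding either inhibitor together with Dex for 3 h did not give a call in any member. DUSP1 had 512 and 574 CPM with GSK591 and 598 and 488 with MS023, which overlapped the Dex libraries. Its difference from Dex alone was 0.06 (95% interval -0.16 to 0.27) and 0.06 (-0.16 to 0.27). DUSP4 was at 111 and 123 CPM with GSK591, and at 133 and 125 with MS023, with differences of 0.05 (-0.16 to 0.25) and 0.19 (-0.02 to 0.39). DUSP5 was at 19.0 and 16.5 CPM with GSK591, a difference of -0.44 (-0.78 to -0.09), and DUSP8, at 0.510 and 0.728 CPM, differed by -0.80 (-1.78 to 0.18). For the rarer genes the intervals leave room for sizeable changes. Over all genes, 0% and 0.196% were called with GSK591 and MS023. The MS023 figure changed with the libraries used: 45 genes were called with all libraries, 2388 of 24930 without replicate 1 of Dex with MS023, and 0 or 1 without any other library compared. The replicates of that group correlated least of the 15, at 0.946, and their epithelial markers summed to 950 and 1540 CPM. No member was called with any of these libraries left out. By unadjusted p below 0.05 the edgeR test gave 1 and 0 members, and DESeq2 called 0 in both.

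With GSK591 alone DUSP4 was called higher at 4 and 7 days, and the days were not compared with each other. The 2-day libraries had 219.7 and 246 CPM, the 4-day libraries 247 and 286 and the 7-day libraries 249 and 267, all above the untreated pair. The log2 fold change was 0.30 (SE 0.101, edgeR adjusted p = 0.0633) at 2 days, which did not pass, then 0.50 (SE 0.1, edgeR adjusted p = 0.000257) and 0.45 (SE 0.101, edgeR adjusted p = 0.00132). The 7-day call was lost without the untreated replicate 1 (log2 0.36, adjusted p = 0.0754). DUSP5 dipped to 28.1 and 32.6 CPM at 4 days, -0.49 (SE 0.153, edgeR adjusted p = 0.0233), a call lost without the GSK591 4-day replicate 1 (log2 -0.40, adjusted p = 0.208), without the untreated replicate 1 (log2 -0.55, adjusted p = 0.0588) and without the untreated replicate 2 (log2 -0.42, adjusted p = 0.165). DUSP6 had 5.28 and 6.32 CPM at 4 days, 0.67 (SE 0.232, edgeR adjusted p = 0.038), lost without any 1 of the 4 libraries compared (log2 0.49 to 0.90, adjusted p = 0.0521 to 0.33). In DESeq2 DUSP5 was -0.48 (adjusted p = 0.0567) and DUSP6 0.68 (adjusted p = 0.108), and with total-count scaling DUSP5 was -0.08 (adjusted p = 0.862), all without a call.

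At 7 days of GSK591 DUSP8 and DUSP16, which act on JNK and p38, were also higher, while DUSP10, of the same specificity, had 1.98 and 2.28 CPM, 0.80 (SE 0.427, edgeR adjusted p = 0.234), without a call. DUSP8 reached 7.67 and 10.3 CPM, after 2.59 and 2.61 at 4 days, where its value was -0.72 (SE 0.281, edgeR adjusted p = 0.0708). The 7-day change was 1.06 (SE 0.245, edgeR adjusted p = 0.00179), 2.09-fold, and it was lost without the GSK591 7-day replicate 2 (log2 0.84, adjusted p = 0.076). DUSP16 had 12.2 and 14.6 CPM, 0.58 (SE 0.176, edgeR adjusted p = 0.0197), lost without the GSK591 7-day replicate 2 (log2 0.45, adjusted p = 0.224), without the untreated replicate 1 (log2 0.52, adjusted p = 0.148) and without the untreated replicate 2 (log2 0.64, adjusted p = 0.0755). With total-count scaling DUSP16 was 0.54 (adjusted p = 0.248) and DUSP4 0.41 (adjusted p = 0.287), both without a call. DUSP1 was not called at any time by edgeR. It had 251 and 255 CPM in the 2-day libraries, 201 and 221 in the 4-day libraries, and 239.8 and 247 in the 7-day libraries. Of the 10 members, none was called at 2 days against 5.64% of all genes, although 4 had an unadjusted p below 0.05 by edgeR and DESeq2 called 0. At 4 days 3 were called against 17.2%, and at 7 days 3, all higher, against 6.68% of genes called higher.

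MS023 also raised DUSP4 early. Its libraries had 283 and 293 CPM at 2 days and 262 and 291 at 4 days, with log2 fold changes of 0.61 (SE 0.1, edgeR adjusted p = 2.51e-05) and 0.55 (SE 0.1, edgeR adjusted p = 7.7e-05). By 7 days they had 215 and 214 CPM, 0.18 (SE 0.1, edgeR adjusted p = 0.244), and the call was gone with the TMM scaling. With total-count scaling the 7-day value was 1.19 (edgeR adjusted p = 2.76e-06), called higher. The scaling bears on every value for this inhibitor, because scaling by total counts alone moved the median log2 fold change of all genes to 0.68, 0.74 and 1.02 at 2, 4 and 7 days. Under that scaling the 2-day, 4-day and 7-day values of every member move up by about these amounts, and changes are given here relative to the bulk of genes. The mitochondrial share of counts moved with MS023: it was 73.4% to 76% in untreated cells, 62.2% to 66.1% at 2 and 4 days and 58.7% to 64.2% in the 3 groups with 7 days of MS023, against 69.8% to 78.7% in those with 7 days of GSK591. With mitochondrial and ribosomal RNA genes left out, every member kept its direction where called and its side of the threshold in all 22 comparisons. That fit again used the TMM scaling, so it does not test the choice between TMM and total-count scaling.

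DUSP1 was higher after 2 days of MS023 and lower after 4 and 7 days. The values were 289 and 290.3, then 143 and 165, then 157 and 168 CPM, against 205 and 224 untreated. The log2 fold changes were 0.43 (SE 0.109, edgeR adjusted p = 0.00558), -0.47 (SE 0.109, edgeR adjusted p = 0.00158) and -0.40 (SE 0.109, edgeR adjusted p = 0.00872). With total-count scaling the last 2 were 0.26 (edgeR adjusted p = 0.274) and 0.61 (edgeR adjusted p = 0.00693). The 7-day value was thus called higher with that scaling. The 2-day call was lost without the MS023 2-day replicate 1 (log2 0.43, adjusted p = 0.0541), without the MS023 2-day replicate 2 (log2 0.43, adjusted p = 0.0509) and without the untreated replicate 1 (log2 0.37, adjusted p = 0.119). The 4-day call was lost without the MS023 4-day replicate 1 (log2 -0.37, adjusted p = 0.0736) and without the untreated replicate 2 (log2 -0.40, adjusted p = 0.051), and the 7-day call without the MS023 7-day replicate 1 (log2 -0.36, adjusted p = 0.104) and without the untreated replicate 2 (log2 -0.33, adjusted p = 0.134).

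DUSP5 was also higher at 2 days and lower at 4 and 7 days, with 57.6 and 58.9 CPM at 2 days. The 4-day libraries had 25.7 and 25.4 CPM and the 7-day libraries 22.9 and 26.3. The 2-day rise of 0.45 (SE 0.147, edgeR adjusted p = 0.0451) was lost without any 1 of the 4 libraries compared (log2 0.39 to 0.52, adjusted p = 0.112 to 0.272). The later values were -0.74 (SE 0.151, edgeR adjusted p = 0.000799) and -0.79 (SE 0.152, edgeR adjusted p = 0.000421) with no library deciding them, and 0.00 and 0.22 with total-count scaling. Groups at 4 and 7 days did not overlap untreated cells.

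Among the ERK phosphatases of the cytoplasm, DUSP6 had 6.61 and 6.98 CPM at 4 days of MS023, 0.90 (SE 0.22, edgeR adjusted p = 0.00313), a call lost without the untreated replicate 1 (log2 0.72, adjusted p = 0.115). DUSP7 was at 5.83 and 4.41 CPM, -0.64 (SE 0.222, edgeR adjusted p = 0.043), or 0.11 with total-count scaling, and was lost without the MS023 4-day replicate 2 (log2 -0.45, adjusted p = 0.367), without the untreated replicate 1 (log2 -0.48, adjusted p = 0.371) and without the untreated replicate 2 (log2 -0.79, adjusted p = 0.0609). Neither passed at 7 days with the TMM scaling, where DUSP6 gave 0.60 (SE 0.225, edgeR adjusted p = 0.0684) and DUSP7 -0.28 (SE 0.216, edgeR adjusted p = 0.427). With total-count scaling both were called higher, DUSP6 at 1.61 (edgeR adjusted p = 5.87e-06) and DUSP7 at 0.74 (edgeR adjusted p = 0.0196).

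After 7 days of MS023 DUSP10, DUSP16 and DUSP2 were higher. DUSP10, a phosphatase of JNK and p38, went from 1.11 and 1.31 to 4.18 and 3.33 CPM, or from 10 and 13 to 59 and 46 counts, a log2 fold change of 1.62 (SE 0.371, edgeR adjusted p = 0.00159). This 3.07-fold rise was the largest of the family under either inhibitor alone. DUSP16 had 13.7 and 17.2 CPM, 0.79 (SE 0.165, edgeR adjusted p = 0.000562), from 193 and 237 counts, and like DUSP10 kept its call in every alternative tried. DUSP2, with 4.75 and 6.73 CPM, gave 1.17 (SE 0.293, edgeR adjusted p = 0.0041) and was lost without the MS023 7-day replicate 2 (log2 0.90, adjusted p = 0.115) and without the untreated replicate 2 (log2 1.10, adjusted p = 0.0683). DUSP14 was at 8.64 and 5.28 CPM and was called in none of the 22 comparisons of the study.

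Over the course of MS023, 3 members were called at 2 days, all higher, against 6.18% of all genes. At 4 days 2 were higher and 3 lower, against 7.8% and 6.37%, and at 7 days 3 were higher and 2 lower, against 7.13% and 6.51%. With total-count scaling 9 members were called higher at 7 days and none lower, beside 16196 of all 22919 genes called in either direction. At 4 days that scaling added DUSP2 (1.03), DUSP14 (1.02) and DUSP16 (0.97) as higher, while DUSP1, DUSP5 and DUSP7 were no longer called. It called 11285 of all 22919 genes at 4 days. The summed markers of other cell types were 3.23 to 5.44 CPM in untreated cells. With GSK591 they were 5.95 to 7.82 CPM at 4 days and 5.76 to 8.49 CPM at 7 days, and with MS023 6.41 to 7.75 and 7.58 to 8.18 CPM. Their part in these results was not tested, and 2 of the 10, CD3E and MS4A1, had a median of 0.

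**Figure D3:**
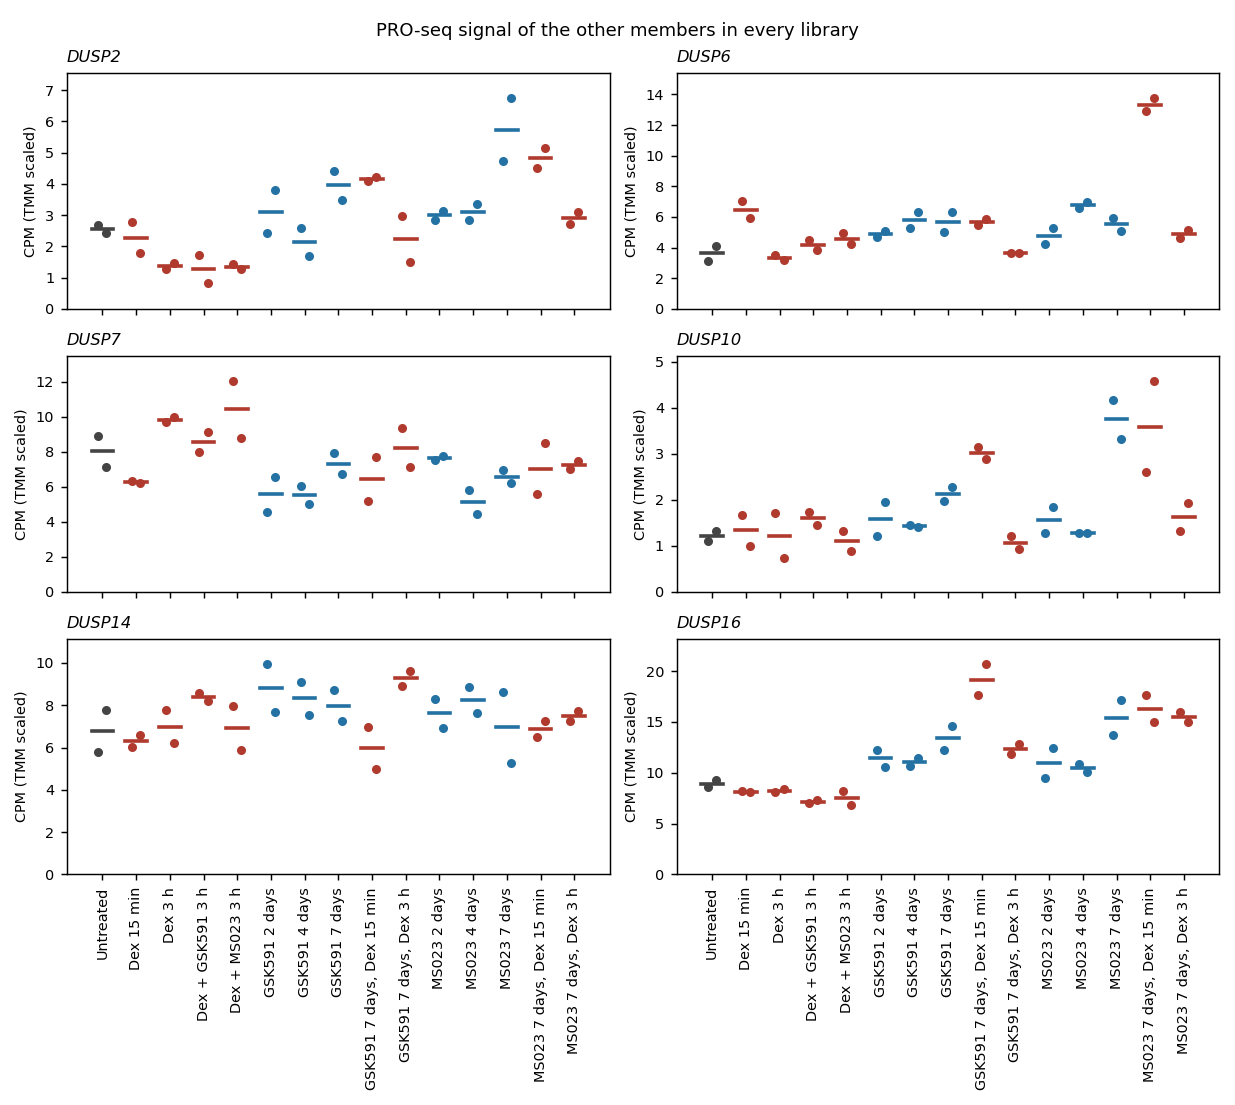
CPM of DUSP2, DUSP6, DUSP7, DUSP10, DUSP14 and DUSP16 in every library, with 1 point per library, a bar at the mean of 2 and a linear axis from 0. Grey is untreated, red any group with Dex and blue an inhibitor alone, and DUSP10 and DUSP16 are above untreated cells at 7 days of MS023, and DUSP14 was called in no comparison.

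Set against each other at the same day, the 2 inhibitors differed in DUSP1 and DUSP5. At 7 days DUSP1 had 239.8 and 247 CPM with GSK591 and 157 and 168 with MS023, a difference of 0.58 (SE 0.109, edgeR adjusted p = 0.000159). With total-count scaling it was -0.46 (edgeR adjusted p = 0.0393), called lower with GSK591. DUSP5 had 50.6 and 50.7 CPM with GSK591 and 22.9 and 26.3 with MS023, a difference of 1.04 (SE 0.152, edgeR adjusted p = 1.18e-05), or 0.00 with that scaling. Both were higher with GSK591 without overlap under the TMM scaling. At 4 days DUSP1 differed by 0.45 (SE 0.109, edgeR adjusted p = 0.00549), a call lost without the GSK591 4-day replicate 2 (log2 0.37, adjusted p = 0.146) and without the MS023 4-day replicate 1 (log2 0.34, adjusted p = 0.186), and with total-count scaling 0.12 (adjusted p = 0.764). At 2 days no member was called, 1 had an unadjusted p below 0.05 by edgeR, and DESeq2 called 0. All genes called made up 2.69%, 6.03% and 9.38% at 2, 4 and 7 days, and 0, 1 and 2 members were called, the 2 at 7 days both higher with GSK591. With total-count scaling 8 members were lower with GSK591 at 7 days and none higher, beside 16029 of all 22919 genes called in either direction. For DUSP10 at 7 days the difference was -0.82 (SE 0.347, edgeR adjusted p = 0.137), with a 95% interval of -1.52 to -0.12 that does not settle whether the inhibitors act differently on it.

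After 7 days of either inhibitor, Dex still raised DUSP1. With GSK591 the libraries went from 239.8 and 247 CPM to 425 and 372 at 15 min and 422 and 377 at 3 h, rises of 0.71 (SE 0.109, edgeR adjusted p = 1.92e-05) and 0.72 (SE 0.109, edgeR adjusted p = 2.26e-06). With MS023 they went from 157 and 168 to 392 and 440.4 CPM at 15 min and 415 and 480.4 at 3 h, rises of 1.35 (SE 0.11, edgeR adjusted p = 3.56e-13) and 1.46 (SE 0.11, edgeR adjusted p = 4.74e-15). None of the Dex groups overlapped its inhibitor group. With total-count scaling the 15 min rise after GSK591 was 0.75 (adjusted p = 0.111), no longer called. The difference between the response after GSK591 and that of cells without inhibitor was tested as an interaction, which for DUSP1 at 3 h was -0.57 (SE 0.153, edgeR adjusted p = 0.112) in edgeR and -0.58 with an adjusted p = 0.0439 in DESeq2. For MS023 it was 0.18 (SE 0.153, edgeR adjusted p = 0.785).

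The falls at 3 h of Dex were present on both inhibitor backgrounds. DUSP8 went from 7.67 and 10.3 to 1.87 and 1.60 CPM after GSK591, -2.35 (SE 0.286, edgeR adjusted p = 1.37e-08), and from 5.67 and 7.24 to 1.68 and 1.92 CPM after MS023, -1.83 (SE 0.259, edgeR adjusted p = 4.02e-07). DUSP5 fell to 29.2 and 19.1 CPM after GSK591, -1.06 (SE 0.158, edgeR adjusted p = 8.51e-06), and to 10.7 and 12.5 CPM after MS023, -1.08 (SE 0.164, edgeR adjusted p = 1.09e-05). With total-count scaling the fall of DUSP5 after GSK591 was -0.83 (adjusted p = 0.054), no longer called. For both genes every Dex library lay below every library of its inhibitor group.

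DUSP4 fell to 123 and 124 CPM after GSK591, -1.06 (SE 0.102, edgeR adjusted p = 2.06e-11), and to 77.2 and 88.9 CPM after MS023, -1.37 (SE 0.102, edgeR adjusted p = 4.08e-15), the lowest DUSP4 values of the study. The fall after MS023 was larger than that without inhibitor, with an interaction of -0.63 (SE 0.144, edgeR adjusted p = 0.0358). That interaction is 1 call among the 10 members, against 0.223% of all genes, and it was lost without the 3 h Dex replicate 2 (log2 -0.55, adjusted p = 0.292), without the MS023 7-day replicate 1 (log2 -0.62, adjusted p = 0.133), without the MS023 7-day replicate 2 (log2 -0.63, adjusted p = 0.148), without the MS023 7-day, Dex 3 h replicate 1 (log2 -0.52, adjusted p = 0.285), without the untreated replicate 1 (log2 -0.54, adjusted p = 0.34) and without the untreated replicate 2 (log2 -0.72, adjusted p = 0.0513). With total-count scaling it was -0.81 (adjusted p = 0.701). The matching GSK591 value was -0.33 (SE 0.144, edgeR adjusted p = 0.483).

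Other members responded to Dex on an inhibitor background. At 15 min DUSP5 rose from 50.6 and 50.7 to 74.2 and 91.2 CPM after GSK591, 0.71 (SE 0.146, edgeR adjusted p = 0.00456), and from 22.9 and 26.3 to 42.2 and 37.9 CPM after MS023, 0.70 (SE 0.15, edgeR adjusted p = 0.00606). The first was lost without the GSK591 7-day replicate 1 (log2 0.71, adjusted p = 0.0863), without the GSK591 7-day replicate 2 (log2 0.70, adjusted p = 0.0677) and without the GSK591 7-day, Dex 15 min replicate 2 (log2 0.55, adjusted p = 0.157). The second was lost without the MS023 7-day replicate 1 (log2 0.61, adjusted p = 0.155) and without the MS023 7-day, Dex 15 min replicate 1 (log2 0.63, adjusted p = 0.112). With total-count scaling they were 0.80 (adjusted p = 0.344) and 0.56 (adjusted p = 0.625). DUSP6 rose at 15 min after MS023, from 5.95 and 5.07 to 12.9 and 13.7 CPM, 1.27 (SE 0.185, edgeR adjusted p = 5.2e-06), with a call in every alternative tried. After GSK591 the DUSP6 libraries had 5.46 and 5.87 CPM, 0.02 (SE 0.228, edgeR adjusted p = 0.985). The interaction of DUSP6 with MS023 at 15 min was 0.45 (SE 0.298, edgeR adjusted p = 1) and that with GSK591 -0.81 (SE 0.324, edgeR adjusted p = 0.617), so neither response was shown to differ from that without inhibitor.

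At 3 h after MS023 the rare members DUSP2 and DUSP10, which MS023 had raised, were lower with Dex. DUSP2 went from 4.75 and 6.73 to 2.71 and 3.10 CPM, -0.98 (SE 0.27, edgeR adjusted p = 0.0101), a call lost without the MS023 7-day replicate 2 (log2 -0.70, adjusted p = 0.27), without the MS023 7-day, Dex 3 h replicate 1 (log2 -0.88, adjusted p = 0.137) and without the MS023 7-day, Dex 3 h replicate 2 (log2 -1.07, adjusted p = 0.0523). DUSP10 went from 4.18 and 3.33 to 1.32 and 1.92 CPM, -1.21 (SE 0.33, edgeR adjusted p = 0.00912), lost without the MS023 7-day replicate 1 (log2 -1.03, adjusted p = 0.134) and without the MS023 7-day, Dex 3 h replicate 1 (log2 -0.96, adjusted p = 0.193). In DESeq2 the values were -0.98 (adjusted p = 0.075) and -1.22 (adjusted p = 0.0746), neither called. Their interactions were -0.09 (SE 0.498, edgeR adjusted p = 0.981) and -1.24 (SE 0.572, edgeR adjusted p = 0.507). DUSP16 stayed at 16.0 and 15.0 CPM. The summed markers of other cell types were 7.58 to 8.18 CPM at 7 days of MS023 and 3.17 to 4.98 CPM after 3 h of Dex, and for GSK591 5.76 to 8.49 and 3.67 to 3.97 CPM. Their part in these falls was not tested.

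After GSK591, 2 members were called higher at 15 min against 1.07% of all genes, and at 3 h 1 was higher and 3 were lower against 5.39% and 4.46%. After MS023, 3 were higher at 15 min against 1.23%, and at 3 h 1 was higher and 5 were lower against 5.72% and 5.38%. The median log2 fold change of the members at 3 h was -0.72 after GSK591 and -0.58 after MS023, beside 0 over all genes in both. In the interactions with GSK591 at 15 min and 3 h and with MS023 at 15 min, edgeR called no member, against 0.00436%, 0.223% and 0.00436% of all genes. There 3, 2 and 1 members had an unadjusted p below 0.05, and DESeq2 called 0, 1 and 0.

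**Figure D4:**
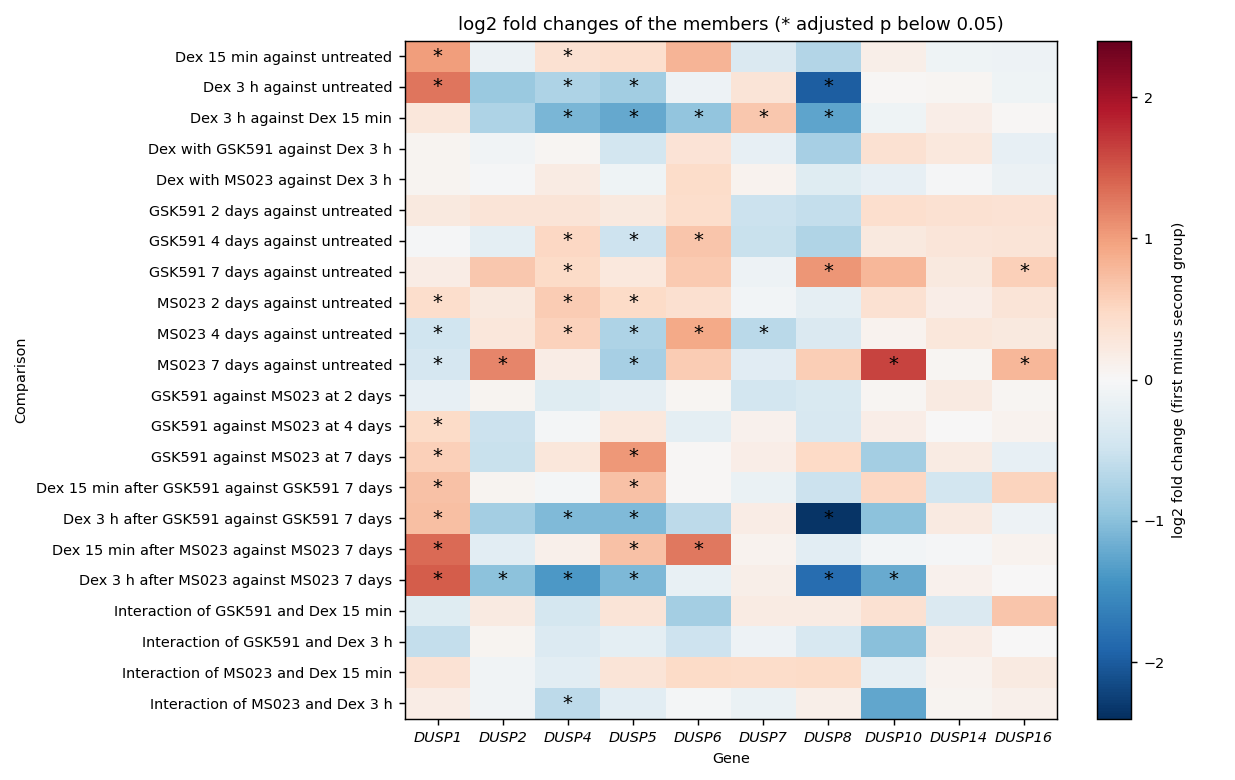
log2 fold changes of the 10 members (columns) in the 22 comparisons (rows), red where the first group named is higher and blue where it is lower, with an asterisk where the edgeR adjusted p is below 0.05. At 3 h of Dex the DUSP1 cells are red and those of DUSP4, DUSP5 and DUSP8 blue with and without inhibitor, and DUSP14 has no asterisk. Values are on the TMM scale, and with total-count scaling the cells of DUSP1, DUSP5 and DUSP7 at 4 and 7 days of MS023 and of DUSP8 at 4 days are no longer blue.

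Other genes of the MAP kinase pathway were read from lists by role. Of 7 Sprouty and Spred genes, which code for inhibitors of receptor to RAS signalling, 2 were higher at 15 min of Dex, SPRY1 by 1.10 and SPRY2 by 0.91, against 1.26% of all genes called in either direction. At 3 h 3 were higher and none lower, SPRY1 by 1.46, SPRY2 by 0.61 and SPRED3 by 0.54, against 6.11% and 4.41% of all genes. Of 9 genes used as readouts of ERK activity, 1 was lower at 15 min, IER3 at -0.46, or -0.13 and not called with total-count scaling. At 3 h 4 were lower and none higher, among them FOSL1 at -1.30, ETV4 at -0.96 and IER3 at -0.81, with a list median of -0.81 beside -0.01 over all genes. With total-count scaling 2 Sprouty and Spred genes were higher at 3 h and 2 of the ERK readouts lower, FOSL1 at -1.14 and ETV4 at -0.81. That scaling called 1259 of all 22919 genes at 3 h, in either direction.

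The kinases themselves were read at 3 h of Dex, where 6.11% of all genes were called higher and 4.41% lower. Of 12 tested MAP kinases 2 were higher, MAPK7 by 0.44 and MAPK12 by 0.43. Of 7 MAP kinase kinases, MAP2K2 was higher by 0.69, and MAP2K6 and MAP2K3, which activate p38, changed by -1.04 and -0.99. Among 17 RAS, RAF and MAP3K genes 2 were higher and 3 lower, with MAP3K14 at -1.10 and MAP3K6 at 0.95. Of 13 other dual specificity and tyrosine phosphatase genes tested, 1 was lower, DUSP3 at -0.49. These changes were called by edgeR with Benjamini-Hochberg adjustment over all genes, and with total-count scaling those of MAPK7, MAPK12, MAP2K6 and DUSP3 kept their sign without a call. That scaling also left fewer calls among the RAS, RAF and MAP3K genes, 1 higher and 1 lower.

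Under the inhibitors alone the ERK readouts split. EGR1 rose by 2.13 at 7 days of GSK591 and by 1.68 at 7 days of MS023, while FOSL1 was at -0.63 and -1.02, or -0.66 and 0.00 with total-count scaling. In all, 2 of the 9 were higher and 2 lower with GSK591, against 6.68% and 6.52% of all genes. Total-count scaling left 1 higher, EGR1, and 0 lower, beside 1135 of all 22919 genes called in either direction. With MS023 1 was higher and 2 lower, against 7.13% and 6.51% of all genes. Total-count scaling gave 7 higher and 0 lower, beside 16196 of all 22919 genes called in either direction. Of the Sprouty and Spred genes none was called at 7 days of GSK591, and 4 of 7 were higher at 7 days of MS023, with SPRY1 at 0.93, SPRED3 at 0.63 and SPRED2 at 0.56. With total-count scaling 6 of 7 were higher with MS023, beside the same 16196 of all 22919 genes. Set directly against MS023 at 7 days, GSK591 gave 1 of the 7 lower and none higher, SPRED2 at -0.61 (edgeR adjusted p = 0.0426), against 9.38% of all genes called in either direction. For the other 6 a difference between the inhibitors was not shown.

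Across the 15 group means of log2 CPM, the profile of DUSP2 was closest within the family to that of DUSP8, with a Pearson correlation of 0.899, and then to that of DUSP16, with 0.844. DUSP4 and DUSP5 correlated at 0.782. DUSP4 ran against DUSP7 at -0.671 and against DUSP1 at -0.640. Among protein-coding genes outside the family that averaged 5 CPM or more, DUSP1 was most like ZNF281 (0.963), POU5F1 (0.951) and TP53I3 (0.923). Genes near DUSP4 included PPFIBP2 (0.953) and CNNM2 (0.944), and DUSP5 was most like NTN4 (0.938), NEDD9 (0.925) and EPAS1 (0.902). The nearest genes to DUSP8 were TGFB2 (0.951), TRIML2 (0.949) and ZNF462 (0.945). The nearest single genes were MAST4 (0.948) for DUSP2, LEKR1 (0.846) for DUSP6, INTS11 (0.912) for DUSP7, TMEM168 (0.882) for DUSP10, BSN (0.878) for DUSP14 and ALPK2 (0.912) for DUSP16. These are descriptions over 15 points, 8 of which are groups with Dex that share their treatment, and the highest of 9621 genes is high by selection.

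The authors' deposited tables of comparisons with untreated cells hold 9 of the members by name, all but DUSP10, among 28873 genes each. Of 72 pairs of gene and comparison over 8 shared comparisons, the authors' deposited tables called 38 and the edgeR fit 24, with 22 called by both in the same direction. The mean signal in the authors' deposited tables was 579 for DUSP16 and 8 for DUSP2, against median counts per library of 108 and 27.5 here. The authors' deposited tables thus rest on other counts than the edgeR fit, and the calls do not compare tests alone. For DUSP1 the authors' deposited table gives log2 fold changes of 1.25 at 15 min of Dex and 1.56 at 3 h. For DUSP8 at 3 h the authors' deposited table gives -2.46. In the authors' deposited table DUSP5 (0.49), DUSP6 (0.75) and DUSP8 (-0.62) are also called at 15 min, where 3.93% of genes with an adjusted p are called. At 3 h the authors' deposited table calls 21.9%. For Dex with GSK591 or MS023 against untreated cells, the authors' deposited tables give DUSP1 1.50 and 1.58 and DUSP8 -3.01 and -2.55. Called by the edgeR fit alone were 2 pairs. DUSP2 at 7 days of MS023 had 1.17 in the edgeR fit and 0.15 in the authors' deposited table. DUSP7 at 4 days of MS023 had -0.64 and -0.36. Another 16 pairs were called in the authors' deposited tables alone. Among them were DUSP1 at 7 days of GSK591 (0.26) and DUSP4 at 2 days of GSK591 (0.35). DUSP16 was among them too, at 2 and 4 days of GSK591 (0.41 and 0.72) and of MS023 (0.40 and 0.41).

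**Figure D5:**
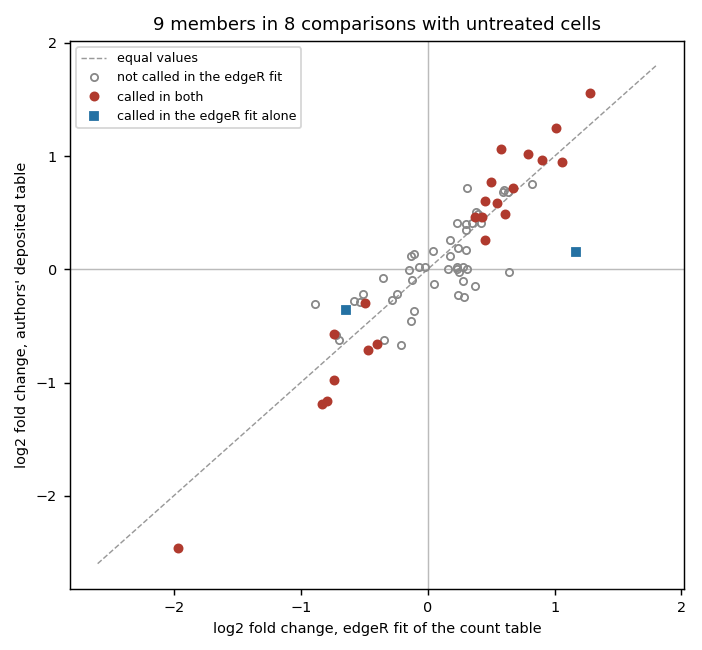
log2 fold changes of 9 members in 8 comparisons with untreated cells, from the edgeR fit of the count table (x) and from the authors' deposited tables (y), with a dashed line at equal values. Filled red points are called in both, open grey points not called in the edgeR fit, and the blue squares, DUSP2 at 7 days and DUSP7 at 4 days of MS023, are called in the edgeR fit alone.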

How the data were processed

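Nascent RNA of A549 cells was measured by PRO-seq in 30 libraries. The authors deposited whole-number counts per gene, not normalised, made with featureCounts 2.0.1 on hg38 per the submitters' processing notes. The aligner, the feature type and the use of strand are not given in the sources used here. The authors' comparison tables, per the file headers, hold a mean signal per gene, log2 fold changes and p-values, and were used as deposited.

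Coordinates and names came from GENCODE 29. Counts were tested with the edgeR 4.0.16 quasi-likelihood test (R 4.3.3, limma 3.58.1, TMM, filterByExpr with a minimum count of 10 and total of 15, robust fit), with all 15 groups in 1 fit of 22919 genes, 15 residual degrees of freedom and a biological coefficient of variation of 10.6%. The 22 comparisons were each adjusted by the Benjamini-Hochberg method and called at 0.05. Interactions give the response after inhibitor minus that without it. The likeness measure used log2 of CPM plus 1. The fit was tested on simulated data. Alternatives were DESeq2 1.42.0, its size factors in edgeR, total-count scaling, no filter, no mitochondrial or ribosomal RNA genes, the compared groups alone, a replicate block and each library left out.

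The named genes are all members, known targets, the 3 genes most like each member and up to 3 called genes per pathway list and comparison. 1 gene that this rule names is not reported here. The members and lists were chosen with earlier results of these data known. In 105 pairs of groups, same-numbered replicates deviated together with correlations of -0.361 to 0.417, of which 13 exceeded 0.1, so numbers were not treated as pairs.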

Additional observations from a re-analysis of the deposited data

Results flagged for a closer look

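The tests of differences between treatments or responses passed for 4 results. DUSP1 was higher with GSK591 than with MS023 by 0.45 on the log2 scale at 4 days and by 0.58 at 7 days, in 2 of 2 libraries each time, although total-count scaling gave 0.12 and -0.46. The value of -0.46 was called lower with GSK591 (edgeR adjusted p = 0.0393). DUSP5 was higher with GSK591 by 1.04 at 7 days, or 0.00 with total-count scaling. The fall of DUSP4 at 3 h of Dex was larger after MS023, with an interaction of -0.63 (edgeR adjusted p = 0.0358). That call was lost without 6 of the 8 libraries, each left out alone.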

How the results depend on the processing

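Of 49 calls of a member in a comparison, 305 of 343 values under alternatives other than leaving out a library kept direction and side of the threshold, 31 were no longer called and 7 changed direction, and of 200 values with 1 library left out 141 kept their call, 59 lost it and none changed direction. Scaling by total counts moved the median of all genes to 0.31 and 0.15 at 15 min and 3 h of Dex, 0.29, 0.42 and -0.03 at 2, 4 and 7 days of GSK591, and -1.07 for GSK591 against MS023 at 7 days. With it the members called were 2 at 3 h of Dex (4 with TMM), 1 at 7 days of GSK591 (3), 6 and 9 at 2 and 7 days of MS023 (3 and 5), 1, 0 and 8 for GSK591 against MS023 at 2, 4 and 7 days (0, 1 and 2), 0 at 15 min of Dex after GSK591 (2) and 0 in the interaction of MS023 and Dex at 3 h (1). Of all 22919 genes total-count scaling called 1259 at 3 h of Dex, 1135 at 7 days of GSK591, and 9228 and 16196 at 2 and 7 days of MS023. For GSK591 against MS023 it called 1108, 1358 and 16029 genes at 2, 4 and 7 days. At 15 min of Dex after GSK591 it called 72 genes, and in that interaction 0. Among log2 values called with at least 1 of both scalings, those that changed sign were DUSP1 0.26, DUSP5 0.00 and DUSP7 0.11 at 4 days of MS023, DUSP1 0.61, DUSP5 0.22 and DUSP7 0.74 at 7 days, and DUSP1 -0.46, DUSP4 -0.78, DUSP5 0.00, DUSP6 -1.03, DUSP7 -0.88 and DUSP14 -0.84 for GSK591 against MS023 at 7 days (they moved with the shift of the median), and values called with neither also changed sign, such as DUSP7 at 2 days of MS023, -0.07 and 0.61. At 4 days of MS023 total-count scaling also changed which members were called, adding DUSP2, DUSP14 and DUSP16 as higher. DESeq2 called 3 members from 15 min to 3 h of Dex (edgeR 5), 1 at 4 days of GSK591 (3) and 1 in the interaction of GSK591 and Dex at 3 h (0). A fit of the compared groups alone called 1 at 15 min of Dex (2), 1 at 2 days of GSK591 (0) and 5 at 4 days (3), and no filter on low counts called 1 at 15 min of Dex (2); the cause was not tested. The replicate block called 1 member at 2 days of GSK591 (0 without it), DUSP4 with 0.30 and an adjusted p = 0.0401, lost DUSP5 at 2 days of MS023 (adjusted p = 0.0552) and changed no other call of a member. Pairs of groups gave a median correlation of 0.0127 between same-numbered replicates. With 1 library left out, the lone replicate of a group is assumed to vary like the other groups, and the members called ranged from 1 to 2 at 15 min of Dex, 2 to 4 from 15 min to 3 h, 1 to 2 and 1 to 3 at 4 and 7 days of GSK591, 1 to 2, 3 to 4 and 3 to 5 at 2, 4 and 7 days of MS023, 0 to 1 for GSK591 against MS023 at 4 days, 1 to 2 and 2 to 3 at 15 min of Dex after GSK591 and MS023, 4 to 5 and 4 to 5 at 3 h, and 0 to 1 in the interaction of MS023 and Dex at 3 h. Whether a call lost in this way reflects the library left out or the smaller group was not tested. Depth limits the rare members, since the median count per library was 17 for DUSP10, 27.5 for DUSP2 and 28.5 for DUSP8.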
